A study of Mus musculus with 365 samples.

Results

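Dntt encodes terminal deoxynucleotidyl transferase, the enzyme that adds untemplated nucleotides at V(D)J junctions, and its transcript is widely used as a sign of lymphoid priming in bone marrow progenitors. The cells described here were selected on their measured Dntt level, as those with at least 25 CPM (the reads of a gene per 1000000 gene reads of that cell), which took 56.4% of 365 sequenced progenitors. Those sorted as Ly6D+ were compared with those sorted as TN (triple negative). Of 152 Ly6D+ cells, all but 11 were Dntt-positive, with 39, 52 and 50 cells on chips 4, 5 and 6 (97.5%, 86.7% and 96.2% of the cells on each chip). Of 213 TN cells, 65 were Dntt-positive, with 22, 25 and 18 cells on chips 1, 2 and 3 (29.3%, 36.2% and 26.1%). The comparison asked what Ly6D+ cells carry beyond the priming that Dntt marks. No Dntt read was found in 41.9% of the 365 cells, and 6 cells had Dntt reads below the threshold. The cells just outside it had 21.1 CPM (Ly6D+) and 15.6 CPM (TN), and the cells just inside had 31.7 and 48.8 CPM (both TN) and 53.5 CPM (Ly6D+).

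Both populations are parts of EPLM, a progenitor stage with lymphoid and myeloid potential. The cells came from the femoral marrow of C57BL/6 Flt3Ltg mice, pooled by 2. The transgene supplies extra Flt3 ligand, a growth factor of early lymphoid and dendritic progenitors, so no group came from a mouse without it, and neither its promoter nor the age of the mice is given in the sources used here. Cells were caught on Fluidigm C1 chips, microfluidic devices that lyse each cell and amplify its full-length cDNA, with 3 chips per population. Each chip held 1 population only, so chip and population cannot be told apart, and the labels do not tie chips to mice, so each p-value rests on how far chips differ, and that spread may be technical.

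Lymphoid progenitors switch on genes such as Flt3, Dntt and Rag1 together with early T and B genes, while granulocyte and dendritic genes fade. Commitment to the B lineage builds on interleukin 7 signals through Il7r and on the transcription factors Ebf1 and Pax5, which activate parts of the pre-B cell receptor such as Cd79a, Cd79b, Igll1 and the Vpreb genes. Ly6D is a small membrane-anchored surface protein used to separate B-biased lymphoid progenitors from those with broader lymphoid potential.

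Dntt and Ly6d are given as a description, because Dntt chose the cells and the Ly6D protein chose the populations. The chip medians of Dntt were 1815, 1504 and 1493 CPM in Dntt-positive TN cells and 4060, 2967 and 3092 CPM in Dntt-positive Ly6D+ cells, so the Ly6D+ cells lay further above the threshold. Ly6d reached 25 CPM in all but 6 Dntt-positive Ly6D+ cells (38, 48 and 49 per chip) and in 19 of 65 TN cells (4, 7 and 8 per chip). The chip medians of Ly6d were 2209, 1647 and 1735 CPM in Ly6D+ cells and 0, 0 and 4.73 CPM in TN cells. The transcript followed the sort label in most cells, and a minority of Dntt-positive TN cells carried it.

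**Figure D1:**
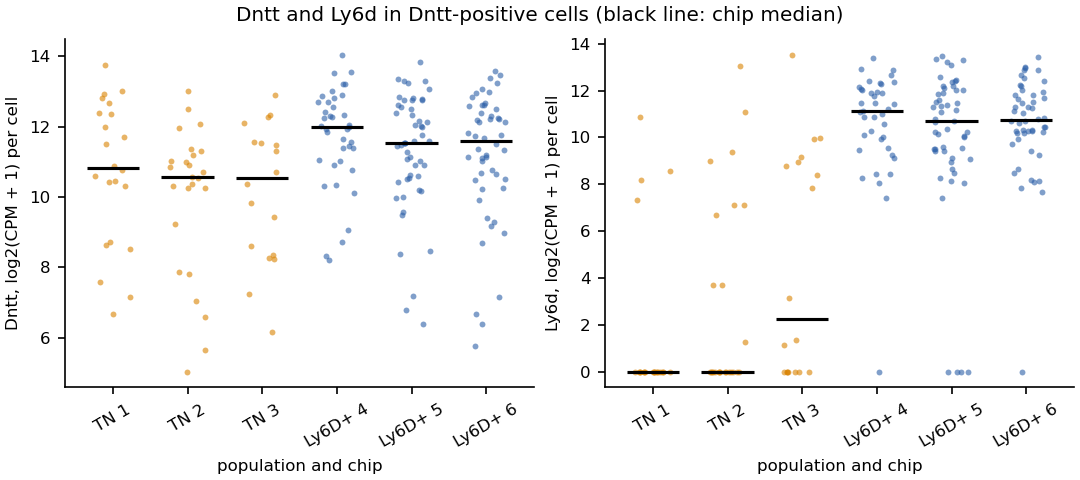
Level of Dntt (left) and Ly6d (right) in each Dntt-positive cell as log2(CPM + 1), by chip, with 1 point per cell (orange, TN; blue, Ly6D+) and a black line at the chip median. Dntt spans a wide range on every chip, with medians of 1493 to 1815 CPM in TN and 2967 to 4060 CPM in Ly6D+, and 38, 48 and 49 Ly6D+ cells against 4, 7 and 8 TN cells per chip reach 25 CPM of Ly6d.

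The Dntt-positive cells of a chip held 13150546 to 51150462 gene reads in all. A Dntt-positive TN cell had 780000 ± 45922 reads (SD, n = 3 chips) and a Ly6D+ cell 930940 ± 46404 reads, and the chip values did not overlap (exact two-sided permutation test, p = 0.1, the smallest that 3 against 3 chips can give). For shares of cells, every cell was therefore thinned to 200000 reads, and a gene counted as detected at 5 or more of them. Genes detected per cell were then 2888, 2792 and 2496 on the TN chips and 2842, 2466 and 2804 on the Ly6D+ chips, a difference of -21.1 (exact two-sided permutation test, p = 0.8). Xist, the non-coding RNA of the inactive X chromosome, reached 25 CPM in 13 of the 25 cells of TN chip 2 and in no other Dntt-positive cell. Of the marker lists of other cell types, the 4 erythroid markers had no read, and the 4 neutrophil markers summed to at most 0.872 CPM on any chip. The 7 granulocyte and monocyte progenitor markers summed to 276 to 536 CPM on the TN chips and 53.8 to 397 CPM on the Ly6D+ chips, with Elane and Ms4a3 at 0 throughout. The 6 plasmacytoid dendritic markers summed to 686 to 1232 CPM (TN) and 824 to 1438 CPM (Ly6D+).

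Interleukin 7 receptor, Ebf1 and the B-cell receptor genes Cd79a, Blk and Blnk were detected in a larger share of Dntt-positive Ly6D+ cells than of Dntt-positive TN cells on every chip, and the progenitor marker Cd34 in a smaller share. For limma-trend on chip means of log2(CPM + 1), every cell of a chip weighed the same, and so did every chip. The means used all reads of a cell, not the thinned ones, and reads per cell differed between the groups as given above. An effect of that difference on the calls was not tested. By limma-trend, 14 of 11032 genes (0.127%) passed an adjusted p of 0.05. Of these, 13 were higher in Ly6D+ cells (Ly6d, Il7r, Ebf1, Cd79a, Blk, Mzb1, Chst15, Rag1, Myl4, Thrb, Gimap4, Cecr2 and Blnk), and Cd34 was lower. The sort on Ly6D set the outcome for Ly6d, so its call is no result. Thrb had no read on the TN chips and passed the filter on low counts through the Ly6D+ chips alone. Its call is therefore no support either. Counts and shares of limma-trend calls over all genes in this comparison still include Ly6d and Thrb. When the reads of all cells of a chip were summed instead, which was the planned test and lets a few highly expressing cells set the value, edgeR's quasi-likelihood test with Benjamini-Hochberg adjustment called 0 of 11032 genes. At an unadjusted p under 0.05, edgeR had 591 genes (5.36%), 367 above TN (3.33%) and 224 below (2.03%). DESeq2 on the same sums called 255 genes (2.19%), with 1.51% of genes higher in Ly6D+ and 0.678% lower. Among the limma-trend genes it called Myl4, Chst15, Thrb, Cd34, Gimap4, Rag1 and Blk beside Ly6d. DESeq2 did not call Il7r (adjusted p = 0.523), Ebf1 (0.607), Cd79a (0.832), Mzb1 (0.942), Cecr2 (0.633) or Blnk (0.0507). Each edgeR log2 fold change between the 2 Dntt-positive groups given below therefore missed the adjusted threshold, and the calls named as such are those of limma-trend, at 0.118% of genes higher and 0.00906% lower.

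The limma-trend calls depended on the chips and cells that entered. Leaving out chips 1 to 6 in turn gave 3, 5, 16, 1, 6 and 1 calls, with Ly6d the gene left without chip 4 or chip 6. Among cells whose Dntt lay between the 10th and 90th percentile of TN cells, Ly6d alone was called, while the differences were 3.79 ± 0.67 for Il7r, 2.87 ± 0.54 for Ebf1, 2.80 ± 0.55 for Cd79a and -2.72 ± 0.61 for Cd34 (log2 scale, SE; limma-trend, adjusted p from 0.113 to 0.311). Between those Dntt limits lay 15, 20 and 16 TN cells and 28, 37 and 35 Ly6D+ cells per chip. Their chip medians of Dntt were 1544, 1758 and 1493 CPM in TN. In Ly6D+ they were 2920, 2478 and 2360 CPM, without overlap, so Dntt was not matched. Among cells with fewer than 5 of 20 G2/M genes detected, Ly6d was again the only call, with differences of like size to those of all Dntt-positive cells (Cd79a 4.10 ± 0.59, Il7r 3.58 ± 0.73 and Cd34 -3.99 ± 0.62 on the log2 scale, with SE).

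**Figure D2:**
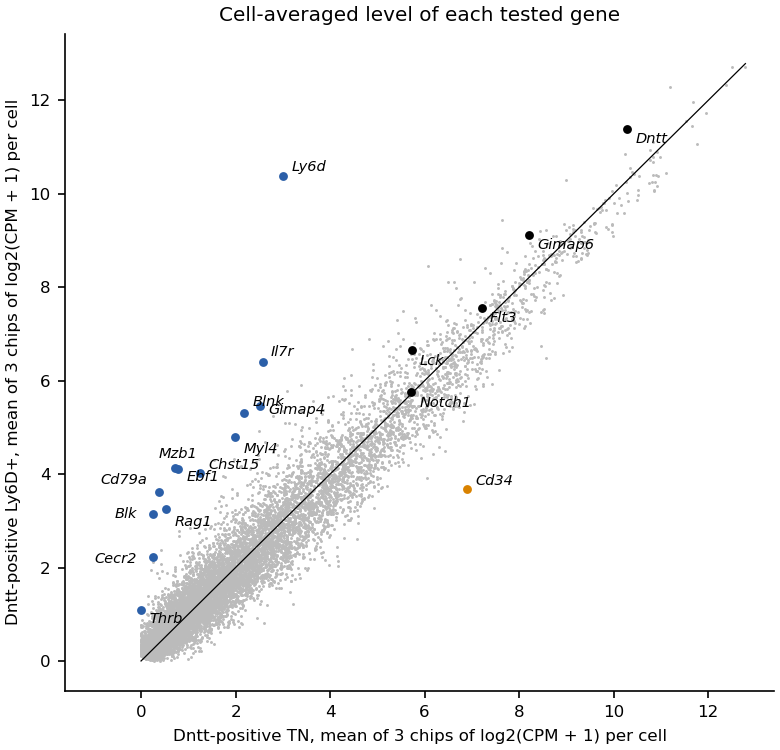
Cell-averaged level of each of 11032 genes, as the mean over 3 chips of log2(CPM + 1) per cell, in Dntt-positive TN (x axis) and Dntt-positive Ly6D+ cells (y axis), with the line of equal level. Blue points are the 13 genes higher in Ly6D+ by limma-trend, with Ly6d, the gene of the sort, among them, and the orange point is Cd34. Black points (Dntt, Gimap6, Flt3, Lck, Notch1) did not pass the test.

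Il7r, the receptor subunit that binds interleukin 7, was detected in 31.8%, 36% and 16.7% of Dntt-positive TN cells and in 76.9%, 71.2% and 68% of Dntt-positive Ly6D+ cells. The chip shares did not overlap, and the cell-averaged difference was 3.83 ± 0.55 on the log2 scale (SE; limma-trend, adjusted p = 0.00641). In summed CPM the chips did overlap, at 55.9, 413 and 245 in TN and 379, 698.5 and 648 in Ly6D+. On TN chip 2, 1 cell held 42.6% of the Il7r reads. The interleukin 7 pathway as a list was mixed. Of 15 members tested, 3 were higher (Jak1, Cish, Ccnd3) and 1 was lower (Bcl2) at an unadjusted edgeR p under 0.05, against 3.33% and 2.03% of all genes, and Il7r was the 1 limma-trend call. The median log2 fold change was 0.19 against -0.0026 over all genes. A Dntt-positive TN cell had 6.23, 6.36 and 5.11 members detected and a Ly6D+ cell 6.92, 6.42 and 6.70, without overlap. Ccnd3, the cyclin D3 gene, had 71.4, 70.4 and 108.7 CPM in TN and 118.3, 199.2 and 147.9 CPM in Ly6D+. Bcl2, which protects cells from death, had 313, 433 and 471 CPM in TN and 254, 158.5 and 231 CPM in Ly6D+.

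Ebf1, the factor that opens the B-lineage program, was detected in 9.09%, 8% and 5.56% of Dntt-positive TN cells and in 43.6%, 40.4% and 48% of Dntt-positive Ly6D+ cells (difference 3.34 ± 0.49, SE; limma-trend, adjusted p = 0.00641). Its summed level was 51.5, 335 and 19.4 CPM in TN and 371, 330.1 and 427 CPM in Ly6D+, so TN chip 2 reached the Ly6D+ range. On that chip 1 cell held 82.9% of the Ebf1 reads, 74.5% of Cd79a, 92.4% of Igll1, 84.2% of Vpreb1 and all reads of Pax5. That cell had 1504 CPM of Dntt, no Ly6d or Xist read and 1100 detected genes, below all other Dntt-positive TN cells. Without the cells of fewer than 1500 detected genes, which leaves it out, the edgeR log2 fold change of Ebf1 went from 1.48 to 3.05 (adjusted p = 0.471). Without the whole of chip 2, edgeR called 3 genes, Cd79a, Igll1 and Cecr2, each without a read on the remaining TN chips. In that setting these 3 passed the filter on low counts through the Ly6D+ chips alone, so the calls are no support.

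The later factors of the B lineage were rarer. Pax5 reads were found in 1 of 65 Dntt-positive TN cells and in 3 of 39, 3 of 52 and 2 of 50 Dntt-positive Ly6D+ cells by chip. Pou2af1, a coactivator of immunoglobulin genes, was without a read in the 65 TN cells (the upper limit of that share is 4.62%, for counting error alone) and had reads in 13 Ly6D+ cells (9.22%). Foxo1, which acts upstream and downstream of Ebf1, was detected in 0%, 8% and 0% of TN cells and in 23.1%, 26.9% and 34% of Ly6D+ cells, but its cell-averaged difference of 1.96 ± 0.43 (SE) missed the threshold (limma-trend, adjusted p = 0.117). Of the 12 B-lineage factors tested, chip levels did not overlap for 3, all higher in Ly6D+ (Foxo1, Pou2af1, Irf4), against 7.67% of all genes, and the median log2 fold change was 0.90. Of these, Pou2af1 passed the filter on low counts through the Ly6D+ chips alone, so its place in that count is no support.

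Cd79a, which encodes a signalling chain of the B-cell receptor, was detected in 0%, 12% and 0% of Dntt-positive TN cells and in 35.9%, 36.5% and 40% of Dntt-positive Ly6D+ cells (difference 3.24 ± 0.49, SE; limma-trend, adjusted p = 0.00787). Any read of Cd79a was found in 4.62% of Dntt-positive TN cells, 45.4% of Dntt-positive Ly6D+ cells and 0.676% of Dntt-negative TN cells. Blk, a Src-family kinase of B cells, was detected in 0%, 4% and 5.56% of TN cells and in 30.8%, 32.7% and 48% of Ly6D+ cells (2.90 ± 0.44, SE; limma-trend, adjusted p = 0.00787). Mzb1, a chaperone of antibody assembly, was detected in 0%, 20% and 5.56% of TN cells and in 48.7%, 42.3% and 54% of Ly6D+ cells (3.41 ± 0.54, SE; limma-trend, adjusted p = 0.0103). In summed CPM the Mzb1 chips overlapped, at 0, 48.3 and 155.98 in TN and 193.6, 117.9 and 206.2 in Ly6D+ (edgeR log2 fold change 1.34 ± 1.54, SE, adjusted p = 0.997), and 1 cell held all its reads on TN chip 3. By chip, the 3 genes were thus detected in 0% to 20% of Dntt-positive TN cells and in 30.8% to 54% of Ly6D+ cells.

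Blnk, the adaptor of the pre-B cell receptor, was already detected in part of the Dntt-positive TN cells, and in a larger share of Ly6D+ cells. It was detected in 27.3%, 20% and 27.8% of TN cells and in 69.2%, 63.5% and 44% of Ly6D+ cells (3.13 ± 0.60, SE; limma-trend, adjusted p = 0.0459). Myl4, a myosin light chain gene transcribed in early B-lineage cells, was detected in 27.3%, 24% and 27.8% of TN cells and in 48.7%, 55.8% and 66% of Ly6D+ cells. Its summed level was 21.02, 29.1 and 27.1 CPM in TN and 138.6, 198.9 and 204.6 CPM in Ly6D+ without overlap (edgeR log2 fold change 2.81 ± 0.40, SE, unadjusted p = 9.77e-05, adjusted p = 0.539; DESeq2 adjusted p = 3.3e-12). Cd72, an inhibitory coreceptor of B cells, had 57.9, 57.2 and 58.96 CPM in TN and 232, 169.2 and 236 CPM in Ly6D+ (edgeR log2 fold change 1.87 ± 0.32, SE, adjusted p = 0.617). Cd79b, the partner of Cd79a, differed less in detection, with 40.9%, 36% and 33.3% of TN cells and 25.6%, 51.9% and 48% of Ly6D+ cells.

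The surrogate light chain genes were restricted to fewer cells. Igll1 was detected in 0%, 8% and 0% of Dntt-positive TN cells and in 12.8%, 11.5% and 14% of Dntt-positive Ly6D+ cells by chip. For Vpreb1 the shares were 0%, 8% and 0% against 28.2%, 21.2% and 22%. For Vpreb3 they were 0%, 12% and 0% against 12.8%, 13.5% and 16%, so all TN cells with these genes detected were on chip 2. Vpreb1 and Vpreb2 are near-identical copies, so reads could be split between them. None of Igll1, Vpreb1 and Vpreb3 passed limma-trend (adjusted p from 0.0775 to 0.619). Across the 22 tested genes of the pre-B receptor and B-cell signalling list, 7 were higher and 0 lower at an unadjusted edgeR p under 0.05, against 3.33% and 2.03% of all genes. Chip levels did not overlap for 11, all higher in Ly6D+, against 7.67% of all genes higher. Detection shares did not overlap for 13 higher and 1 lower (Fcrla), against 5.85% higher and 4.63% lower over all genes. The median log2 fold change was 1.64. A Dntt-positive TN cell had 4.91, 5.76 and 4 of these genes detected on the 3 chips and a Ly6D+ cell 8.59, 7.92 and 8.72, against 3.81, 3.25 and 3.43 in Dntt-negative TN cells.

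**Figure D3:**
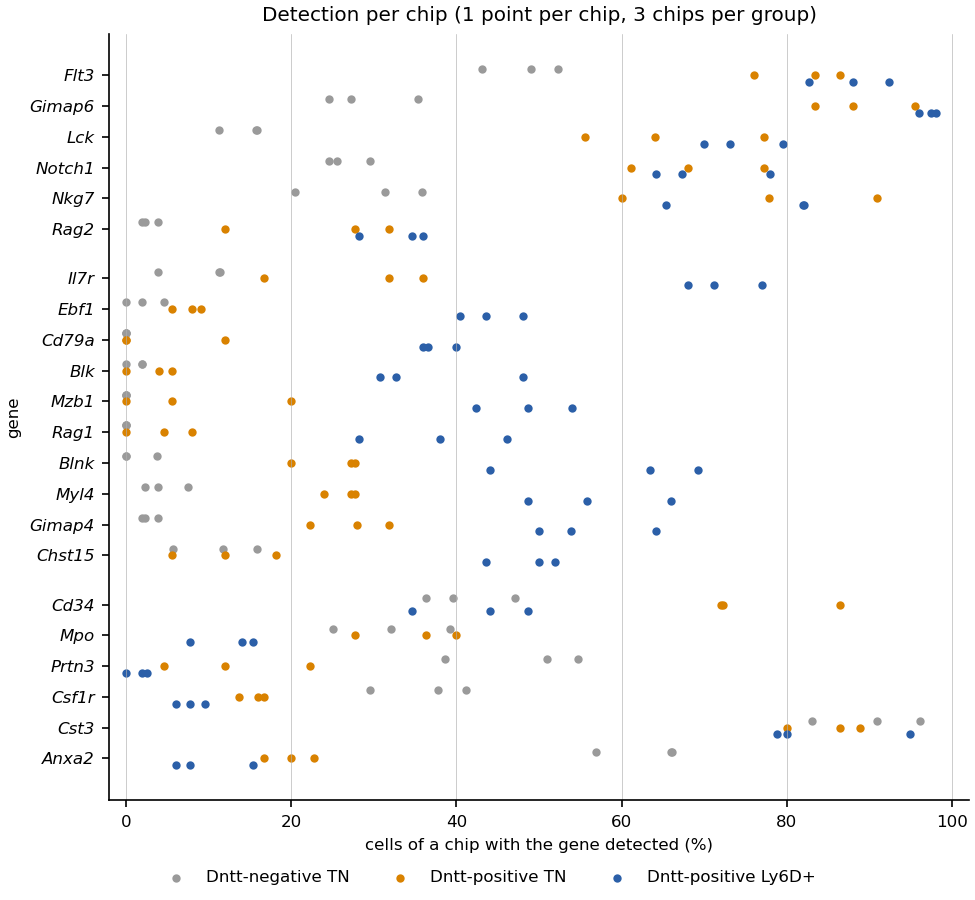
Share of cells of a chip with the gene detected (5 or more of 200000 thinned reads), 1 point per chip and 3 chips per group, in Dntt-negative TN (grey), Dntt-positive TN (orange) and Dntt-positive Ly6D+ cells (blue). Flt3, Gimap6, Lck, Notch1 and Nkg7 lie above Dntt-negative TN cells in both Dntt-positive groups, Il7r to Chst15 lie highest in Ly6D+, and Cd34 and Mpo lie lower in Ly6D+ than in Dntt-positive TN.

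Rag1, which with Rag2 encodes the recombinase that cuts antigen receptor genes, was detected in 4.55%, 8% and 0% of Dntt-positive TN cells and in 28.2%, 46.2% and 38% of Dntt-positive Ly6D+ cells (2.72 ± 0.49, SE; limma-trend, adjusted p = 0.0309). Rag2 was closer between the groups, at 31.8%, 12% and 27.8% against 28.2%, 34.6% and 36%, and its chip shares overlapped (1.02 ± 0.53, SE; limma-trend, adjusted p = 0.813). Either gene was detected in 27.7% of the TN and 50.4% of the Ly6D+ cells. Of the 11 tested genes of V(D)J recombination and end joining other than Dntt, 4 were higher and 0 lower at an unadjusted edgeR p under 0.05 (Rag1, Rag2, Lig4, Xrcc6), against 3.33% and 2.03% of all genes. Xrcc6, the Ku70 subunit of the end-joining complex, had 649, 496 and 399.98 CPM in TN and 876, 1094 and 998 CPM in Ly6D+. Lig4, the ligase of that pathway, had no read on the TN chips and 49.9, 8.32 and 6.64 CPM on the Ly6D+ chips. It thus passed the filter on low counts through the Ly6D+ chips alone, and its place among the 4 is no support.

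Gimap genes encode GTPases of lymphocytes that lie in 1 cluster and act in lymphocyte survival. Gimap4 was detected in 31.8%, 28% and 22.2% of Dntt-positive TN cells and in 64.1%, 53.8% and 50% of Dntt-positive Ly6D+ cells (2.94 ± 0.56, SE; limma-trend, adjusted p = 0.0420). Gimap6 was already near its ceiling, detected in 95.5%, 88% and 83.3% of TN cells and 97.4%, 98.1% and 96% of Ly6D+ cells, with 741, 654 and 965 CPM against 795, 1175 and 1064 CPM (edgeR log2 fold change 0.36 ± 0.24, SE, adjusted p = 0.979). All 7 tested Gimap genes had a positive log2 fold change, with a median of 0.91. Of them, 3 (Gimap4, Gimap8, Gimap9) were below an unadjusted edgeR p of 0.05, against 3.33% of all genes higher. The number of Gimap genes detected per cell was 2.91, 2.32 and 2.33 in Dntt-positive TN, 3.54, 3.29 and 3.36 in Ly6D+ and 0.717, 0.591 and 0.725 in Dntt-negative TN cells.

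Because Cd79a and Gimap4 stand for the 2 patterns, near absence and partial presence in Dntt-positive TN cells, their promoters are shown, as the 300 bases around the start of the gene, most of them upstream (RefSeq, GRCm38.p6, plus strand; Cd79a chr7:24897247-24897546, Gimap4 chr6:48684328-48684627). Capitals mark CANNTG, the E-box letters bound by E proteins, a motif that reads the same on both strands.
Cd79a: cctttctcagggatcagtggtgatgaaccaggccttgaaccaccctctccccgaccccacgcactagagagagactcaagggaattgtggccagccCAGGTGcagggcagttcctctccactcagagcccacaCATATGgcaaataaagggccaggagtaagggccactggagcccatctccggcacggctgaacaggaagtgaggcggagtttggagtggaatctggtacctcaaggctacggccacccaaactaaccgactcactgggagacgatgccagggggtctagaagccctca
Gimap4: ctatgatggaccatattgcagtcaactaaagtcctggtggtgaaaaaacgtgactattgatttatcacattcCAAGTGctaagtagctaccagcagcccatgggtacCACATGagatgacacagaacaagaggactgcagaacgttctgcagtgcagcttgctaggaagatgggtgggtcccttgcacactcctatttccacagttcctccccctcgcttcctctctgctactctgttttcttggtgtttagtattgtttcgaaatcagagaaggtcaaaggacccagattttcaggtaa
Of the 13 genes called by limma-trend other than Ly6d, 10 had a promoter in the table. CANNTG stood in 8 of these 10 and in 75% of the promoters of 27025 entries, so it did not set them apart. CCCNNGGG, the core of the motif bound by Ebf1, which also reads the same on both strands, stood in 1 of the 10 (Gimap4) and in 15.4% of all entries.

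Genes outside these lists were also among the calls. Chst15, a sulfotransferase of chondroitin chains, was detected in 18.2%, 12% and 5.56% of TN cells and in 43.6%, 51.9% and 50% of Ly6D+ cells (2.78 ± 0.50, SE; limma-trend, adjusted p = 0.0309). Thrb, a thyroid hormone receptor, had no read in the Dntt-positive TN cells (upper limit 4.62%) and reads in 15.6% of Ly6D+ cells (1.08 ± 0.20, SE; limma-trend, adjusted p = 0.0420). As it passed the filter on low counts through the Ly6D+ chips alone, that p-value is given as a description. Cecr2, a chromatin protein with a bromodomain, had reads in 2 TN and 38 Ly6D+ cells (1.99 ± 0.38, SE; limma-trend, adjusted p = 0.0433). Neither Thrb nor Cecr2 was frequent even in Ly6D+ cells, at 12.8%, 11.5% and 12% and at 28.2%, 21.2% and 22% of cells by chip.

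Early lymphoid genes divided into those called higher in Ly6D+ cells (Il7r and Rag1, above) and others, among them Flt3, Notch1 and Lck, whose chip levels overlapped between the Dntt-positive groups. The 7 lymphoid priming markers other than Dntt (Flt3, Il7r, Rag1, Rag2, Notch1, Satb1, Gimap6) summed to 1987 to 2322 CPM on the TN chips and 2624 to 3545 CPM on the Ly6D+ chips. Flt3, the receptor of Flt3 ligand, was detected in 86.4%, 76% and 83.3% of Dntt-positive TN cells and in 92.3%, 82.7% and 88% of Ly6D+ cells. Its summed level was 465, 440.3 and 687 CPM against 600.2, 495 and 474 CPM (edgeR log2 fold change -0.02 ± 0.25, SE, adjusted p = 0.997), and its sign differed in 10 of the other settings. Notch1, the receptor that directs T-lineage choice, was at 219.9, 229.9 and 289 CPM against 137.4, 264 and 320.4 CPM (-0.03 ± 0.35, SE), with a sign that differed in 7 settings. Lck, a kinase of T and early lymphoid cells, was at 540.5, 389.9 and 337 CPM against 566, 749 and 476 CPM (0.50 ± 0.28, SE). Nkg7, a granule membrane gene of cytotoxic and early lymphoid cells, was at 483, 354 and 660.1 CPM against 308, 366 and 490.0 CPM (-0.36 ± 0.30, SE). None of these passed any of the 3 tools, and a p above the threshold does not show that the levels were equal. In Dntt-negative TN cells the same genes were lower: Flt3 was detected in 48.2% ± 4.63 of cells (SD, n = 3), Notch1 in 26.5% ± 2.66, Lck in 14.3% ± 2.59, Nkg7 in 29.2% ± 7.92 and Gimap6 in 29.03% ± 5.59.

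Of the 20 tested early lymphoid genes other than Dntt, 2 were higher (Rag1, Rag2) and 1 lower (Lat2) at an unadjusted edgeR p under 0.05, against 3.33% and 2.03% of all genes, and 2 were limma-trend calls (Il7r, Rag1). Detection shares did not overlap for 6 higher, Il7r and Rag1 among them, and 2 lower (Sox4, Tcf4), against 5.85% and 4.63% of all genes. The median log2 fold change was 0.26. Without Dntt, a Dntt-positive TN cell had 11.2, 10.7 and 9.61 list members detected and a Ly6D+ cell 12.2, 11.8 and 12.6, without overlap, and a Dntt-negative TN cell had 6.08, 6.45 and 6.39. Ets1, a transcription factor of lymphocytes, was at 105.2, 182.99 and 0.85 CPM in TN and 367, 437 and 469 CPM in Ly6D+, without passing a test.

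**Figure D4:**
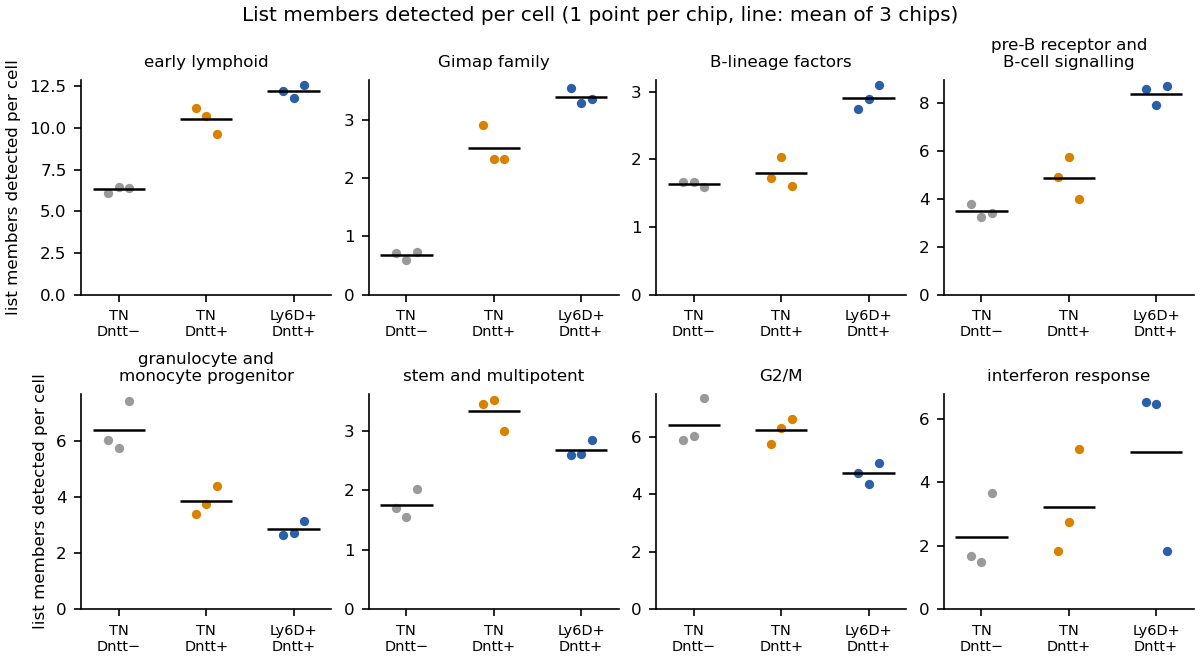
Members of 8 gene lists, Dntt and Ly6d left out, detected per cell (y axis, count of genes at 5 or more of 200000 thinned reads), 1 point per chip with a line at the mean of 3 chips, in Dntt-negative TN, Dntt-positive TN and Dntt-positive Ly6D+ cells. Early lymphoid and Gimap genes stand well above Dntt-negative TN in both Dntt-positive groups, the pre-B receptor list stands highest in Ly6D+, and the interferon list varies between chips of both populations, from 1.82 to 6.54 genes.

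The split of TN cells by Dntt was made on a gene measured in the same cells, so the counts from it are a description. With the chip as a block, edgeR called 0 of 10938 genes between Dntt-positive and Dntt-negative TN cells, with 845 at an unadjusted p under 0.05 (7.73%), and limma-trend called 421 (3.85%), 321 higher (2.93%) and 100 lower (0.914%) in Dntt-positive cells. This comparison and the main one share the Dntt-positive TN cells, so the values are only set side by side. Cell-averaged differences were 5.90 ± 0.46 for Gimap6, 4.58 ± 0.51 for Lck and 2.98 ± 0.45 for Flt3 between the TN groups, against 0.92 ± 0.40, 0.93 ± 0.56 and 0.36 ± 0.47 between Ly6D+ and TN (limma-trend, log2 scale, SE). For Ebf1, Rag1 and Blk the values were 0.61 ± 0.21, 0.52 ± 0.17 and 0.15 ± 0.15 between the TN groups, against 3.34 ± 0.49, 2.72 ± 0.49 and 2.90 ± 0.44. Gimap4, Blnk and Myl4 lay between, at 2.26 ± 0.41, 1.97 ± 0.38 and 1.59 ± 0.37 between the TN groups and 2.94 ± 0.56, 3.13 ± 0.60 and 2.82 ± 0.51 in the main comparison.

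Cd34, a sialomucin of multipotent progenitors, was the gene called lower. It was detected in 86.4%, 72% and 72.2% of Dntt-positive TN cells and in 48.7%, 34.6% and 44% of Dntt-positive Ly6D+ cells (-3.21 ± 0.56, SE; limma-trend, adjusted p = 0.0309). Its summed level was 643, 682 and 640.5 CPM in TN and 229.9, 123.8 and 233 CPM in Ly6D+ (edgeR log2 fold change -1.74 ± 0.30, SE, adjusted p = 0.617; DESeq2 adjusted p = 0.000122). Dntt-negative TN cells had 317 ± 41.9 CPM (SD, n = 3), so Dntt-positive TN cells held the most Cd34 of the 3 groups. Of 10 tested members of the stem and multipotent list, Cd34 alone was below an unadjusted edgeR p of 0.05, against 2.03% of all genes lower. The list's median log2 fold change was -0.53, with 7 of the 10 negative, and a cell had 3.45, 3.52 and 3 members detected on the TN chips and 2.59, 2.62 and 2.84 on the Ly6D+ chips, without overlap. Kit, the receptor of stem cell factor, was at 133.8, 244 and 84.3 CPM against 78.99, 119.2 and 189.04 CPM (edgeR log2 fold change -0.25 ± 0.50, SE).

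Granule protein genes of granulocyte progenitors were detected in part of the Dntt-positive TN cells. At least 1 of Mpo, Prtn3, Elane and Ctsg was detected in 45.5%, 44% and 44.4% of Dntt-positive TN cells and in 12.8%, 15.4% and 18% of Dntt-positive Ly6D+ cells. Mpo, myeloperoxidase, was the main contributor, in 36.4%, 40% and 27.8% against 7.69%, 15.4% and 14% of cells. Its summed level was 130.6, 373 and 385 CPM against 23.6, 58.6 and 49.2 CPM (edgeR log2 fold change -2.76 ± 0.54, SE, adjusted p = 0.617; DESeq2 adjusted p = 0.000252; limma-trend adjusted p = 0.331). Dntt-negative TN cells held 2458 ± 838 CPM of Mpo (SD, n = 3), in 32.1% ± 7.11 of cells. The share of Mpo-detected cells was thus alike in the TN groups while their summed level was not. For Prtn3 the shares differed too, at 4.55%, 12% and 22.2% of Dntt-positive and 54.7%, 38.6% and 50.98% of Dntt-negative TN cells. Elane, neutrophil elastase, had no read in Dntt-positive cells of either population (upper limits 4.62% in TN and 2.13% in Ly6D+) and had reads in 17.6% of Dntt-negative TN cells.

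Of the 20 tested granulocyte and monocyte progenitor genes, 3 were lower in Ly6D+ and 0 higher at an unadjusted edgeR p under 0.05 (Mpo, Csf3r, Tyrobp), against 2.03% and 3.33% of all genes, with a median log2 fold change of -0.65. Detection shares did not overlap for 5, all lower (Mpo, Prtn3, Csf1r, Csf3r, Cd68), against 4.63% of all genes. Csf3r, the receptor of the granulocyte growth factor, had 14.97, 10.3 and 90.5 CPM in TN and 0.676, 0 and 0 CPM in Ly6D+. Csf1r, the macrophage growth factor receptor, was detected in 13.6%, 16% and 16.7% against 7.69%, 9.62% and 6% of cells, but 1 cell held 90.96% of its reads on chip 5 and its summed levels overlapped. Granule genes and Il7r were detected together in 13.6%, 12% and 0% of TN cells and 2.56%, 11.5% and 12% of Ly6D+ cells by chip. Granule genes with Ebf1 or Cd79a were detected in 1 TN cell (1.54%) and 10 Ly6D+ cells (7.09%). Ebf1 or Cd79a was detected in 9.23% of the TN and 53.2% of the Ly6D+ cells.

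The levels of most dendritic and T-lineage genes overlapped between the groups. Cst3, cystatin C, was at 289, 308 and 711 CPM in Dntt-positive TN and 413, 333 and 352 CPM in Ly6D+ cells (edgeR log2 fold change -0.25 ± 0.37, SE), against 2717 ± 549 CPM (SD, n = 3) in Dntt-negative TN cells. The MHC class II gene H2-Aa was at 47.7, 16.5 and 108.5 CPM against 9.51, 154.4 and 30.7 CPM, and its partner chain Cd74 at 71.3, 30.3 and 295 CPM against 31.1, 174.1 and 75.4 CPM. Irf8, a factor of dendritic and monocytic cells that early B cells also use, was at 483, 854.5 and 912 CPM against 745, 846 and 463 CPM (-0.13 ± 0.32, SE). Siglech, a plasmacytoid dendritic receptor, was detected in 4.55%, 8% and 5.56% against 17.9%, 15.4% and 12% of cells, so its chip shares did not overlap while its summed levels did. Tcf7 and Gata3, factors of the T lineage, were detected in 4% to 11.1% and 13.6% to 16.7% of TN cells and in 2.56% to 6% and 5.13% to 22% of Ly6D+ cells. Id2, an inhibitor of E proteins, was at 98.8, 10.0 and 438 CPM against 95.3, 111.5 and 270.1 CPM. In these lists 0 genes were higher and at most 1 of each was lower at an unadjusted edgeR p under 0.05, against 3.33% and 2.03% of all genes.

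Cell cycle and glycolysis lists had negative median log2 fold changes, with no limma-trend call. A Dntt-positive TN cell had 5.77, 6.32 and 6.61 of 20 G2/M genes detected and a Ly6D+ cell 4.74, 4.35 and 5.10 (exact two-sided permutation test, p = 0.1, the smallest possible). The median log2 fold change was -0.31 for the G2/M list, -0.50 for the 20 G1/S genes (2 lower, Cdc6 and Slbp, at an unadjusted edgeR p under 0.05) and -0.47 for the 14 glycolysis genes (0 in either direction), against 2.03% of all genes lower. Chip levels did not overlap for 6 of the G1/S genes (Mcm4, Mcm7, Pcna, Cdc6, Slbp, Gmnn), 1 of the G2/M genes (Plk1) and 5 of the glycolysis genes (Hk2, Aldoa, Tpi1, Pgk1, Pgam1), all lower in Ly6D+, and for Hk1, which was higher, against 5% of all genes lower and 7.67% higher. Detection shares were lower without overlap for 6 G2/M genes (Mki67, Cenpe, Cenpf, Birc5, Hmmr, Kif11), 4 glycolysis genes and 1 G1/S gene, and higher for 1 G1/S gene (Uhrf1), against 4.63% and 5.85% of all genes. Tpi1, triosephosphate isomerase, for example was at 367, 270.2 and 239 CPM in TN and 187.7, 152.8 and 212.2 CPM in Ly6D+.

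The values in all cells of the populations are set beside those in Dntt-positive cells. Among all 365 cells edgeR called 24 of 11797 genes (0.203%), with 0.0932% higher and 0.11% lower in Ly6D+, and these share the Dntt-positive cells with the main comparison. The genes below were chosen as calls in all cells, so a smaller value in the Dntt-positive subset is no result by itself. The log2 fold change of Cst3 was -2.27 ± 0.16 (SE) in all cells and -0.25 ± 0.37 in Dntt-positive cells, that of Gimap6 was 1.71 ± 0.20 and 0.36 ± 0.24, and that of Tmsb4x, thymosin beta 4, was -1.14 ± 0.16 and -0.31 ± 0.21. Atp1b3, a subunit of the sodium pump, was at 1.64 ± 0.21 and 1.496 ± 0.278, Cd72 at 2.40 ± 0.32 and 1.87 ± 0.32, and Myl4 at 4.05 ± 0.35 and 2.81 ± 0.40. Mpo was at -5.46 ± 0.44 and -2.76 ± 0.54. Anxa2, annexin A2, was at -2.83 ± 0.37 and -1.53 ± 0.69, and Vim, vimentin, at -1.42 ± 0.18 and -0.48 ± 0.32.

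The genes with the smallest unadjusted edgeR p and chip levels that did not overlap included others of other function. Atp1b3 had 170.4, 111.2 and 135.1 CPM in TN and 347, 439.9 and 388 CPM in Ly6D+. Crip1, a LIM-domain protein, was detected in nearly all cells of both groups and had 397, 279.9 and 265 CPM against 593, 655 and 691 CPM (edgeR log2 fold change 1.04 ± 0.24, SE, adjusted p = 0.617). Tap1, the peptide transporter of the MHC class I pathway, had 43.99, 62.4 and 48.4 CPM against 161.9, 221 and 134.4 CPM. Kansl1l, Gphn, Mlxip, Pdpk1 and Rnf157 had edgeR log2 fold changes of 1.55 to 2.99. On the lower side, Rgs18, a regulator of G-protein signalling in blood cells, had 399, 411 and 645 CPM in TN and a mean of 235 ± 35.05 CPM (SD, n = 3 chips) in Ly6D+ (edgeR log2 fold change -1.04 ± 0.28, SE). Car2, carbonic anhydrase 2, had 391, 235 and 227 CPM against 119.8, 30.3 and 71.1 CPM. Dhx30, Kbtbd2, Oga, Gcnt2, Wdr18, Cacybp and Parvg had log2 fold changes of -0.92 to -2.12. Pak1 was at -3.33 ± 0.88, but 1 cell held 90.2% of its reads on TN chip 3.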

How the data were processed

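Per the labels' protocols, cDNA came from SMARTer chemistry and libraries from Nextera XT, which marks neither molecules nor strands, so overlapping or antisense genes cannot be told apart. The authors deposited raw read counts per gene and cell for 152 Ly6D+ and 213 TN cells, left from 178 and 232 captured after their filters. The submitters' processing notes name mm9 and R 3.2.0. Not given in the sources used here are the aligner, the counting program and how doublets were treated; no caller of doublets was applied here. Symbols for 23334 of 23427 Entrez identifiers, and promoter sequences, came from RefSeq tables of GRCm38.p6.

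The members, the 24 gene lists and the tests were chosen with earlier results of these data known. Counts of Dntt-positive cells were summed per chip for edgeR 4.0.16 under R 4.3.3 (TMM, filterByExpr, quasi-likelihood F-test, Benjamini-Hochberg adjusted p under 0.05). SE is the absolute log2 fold change over the square root of F. CPM of a chip uses TMM-scaled library sizes. Alternatives were limma-trend (limma 3.58.1) on chip means of log2(CPM + 1), DESeq2 1.42.0, other thresholds and cell sets, and leaving out each chip. In the TN comparison, both classes come from the same chips, so chip was a block. Named genes were a panel of 41, up to 12 in each direction by smallest p with chip levels that did not overlap and detection in 20% of cells, and, chosen after their values were seen, all limma-trend calls and further list members. Exact tests permute 3 against 3 chips. Intervals and limits for counts of 0 (3 counts) cover counting error only. In 5 simulations of the Dntt-positive sums over 11032 genes, the share of changed genes that edgeR called was 1.6% at 2-fold, 24.4% at 4-fold, 52.8% at 8-fold and 73.2% at 16-fold, with 4.76% false calls. The changed genes were drawn from those above the median level, so these shares do not cover genes below it.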

Additional observations from a re-analysis of the deposited data

How the results depend on the processing

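The number of genes called between Dntt-positive Ly6D+ and TN cells was 0 with edgeR as planned and also with DESeq2 size factors in edgeR, without a filter on low counts, after thinning, at each other Dntt threshold and in each subset of cells. It was 255 with DESeq2 and 14 with limma-trend. With limma-trend, settings added after seeing the data gave 14 (weighted by cells per chip), 1 (Dntt window), 11 (Ly6d transcript matching the label), 6 (without Xist cells), 16 (without cells under 1500 genes), 1 (fewer than 5 G2/M genes), 13 (Dntt of 100 CPM or more) and 16 (1 or more Dntt reads). Leaving out 1 chip gave 0 to 3 calls with edgeR, with the 3 without TN chip 2, and 1 to 16 with limma-trend. Every limma-trend count includes Ly6d, whose outcome the sort set, and the label-matching setting also chose cells on it. Where limma-trend called 1 gene, that gene was Ly6d. The cause of these differences in the number of calls was not tested. Over 14 limma-trend settings, Ly6d was called in 14, Il7r and Ebf1 in 10, Mzb1 in 9, Blk and Cd79a in 8, Cd34, Chst15 and Myl4 in 6, Blnk, Gimap4, Rag1 and Thrb in 4, and Cecr2 in 3, with differences of 3.58 to 4.26 for Il7r, 2.87 to 3.54 for Ebf1 and -3.99 to -2.72 for Cd34.

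No paired analysis was possible because the chips of the 2 populations share no number and the labels do not tie chips to mice. Within TN cells, Dntt-positive against Dntt-negative gave 5 calls without the replicate block of chip, 421 by limma-trend with the block, and 0 to 0 when a chip was left out. The difference in genes detected per cell was -21.1, turned to 7.43 when 1 read counted as detected, and ran from -135.9 to 97.8 when 1 chip was left out, with positive values without TN chip 1 (60.4), TN chip 2 (12.3) or Ly6D+ chip 5 (97.8). The sign of 12 named genes changed in some setting, Flt3 in 10, Notch1 in 7 and Csf1r, H2-Aa and Id2 in 6 each, and none of the 12 was called by edgeR on the Dntt-positive sums or by limma-trend (DESeq2 called Kbtbd2). With 3 chips a side, edgeR called 24.4% of simulated 4-fold and 52.8% of simulated 8-fold changes. Most changes of 4-fold or less, and many larger ones, would thus be missed at this depth.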

Other observations

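The interferon response list differed more between chips than between populations. All 15 of its genes had a positive log2 fold change in Dntt-positive Ly6D+ cells, with a median of 1.03. The chip levels separated for 0 of them, against 7.67% of all genes higher and 5% lower. A cell had 1.82, 2.76 and 5.06 of these genes detected on TN chips 1, 2 and 3 and 6.54, 6.48 and 1.82 on Ly6D+ chips 4, 5 and 6. Usp18, which curbs interferon signalling, was at 171.8, 53.1 and 874 CPM in TN and 495, 1593 and 143.6 CPM in Ly6D+ cells. Irf7, an interferon-induced factor, was at 0.162, 48.2 and 169.5 CPM in TN and 194.2, 354 and 9.71 CPM in Ly6D+ cells. Chip 3 of the TN cells stood with chips 4 and 5 of the Ly6D+ cells, and chip 6 stood with TN chips 1 and 2.

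Of 11 Ly6D+ cells that did not meet the Dntt threshold, 8 came from chip 5. No value over chips was taken from so few cells.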
